A study of Saccharomyces cerevisiae with 22 samples.

Results

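Vacuole and total RNA of growing yeast were compared within each of 2 strains of *Saccharomyces cerevisiae* labelled X2180-1a (X2180-1B in the study's strain list), without rapamycin. The libraries were chosen by their titles, which name growing cells, a fraction and a strain, and they number 4 of the 22 libraries in the series. In vacuole libraries the RNA came from a fraction floated on Ficoll, and in total libraries from the whole lysate. The first strain is labelled *rny1*Δ, which lacks the vacuolar ribonuclease Rny1, with *natNT2* in its place. The second is labelled *rny1*Δ *atg2*Δ and also lacks Atg2 (*kanMX6* in its place), without which autophagosomes do not form. Each strain gave 1 vacuole and 1 total library from cells grown in YPD medium, and all 4 libraries share the label *rny1*Δ, controls included. The remaining libraries are 8 of the same fractions after 3 h in 0.2 µM rapamycin, and WT libraries of mRNA and ribosome footprints.

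The vacuole is the degradative and storage compartment of the yeast cell, equivalent to the lysosome of animal cells. Autophagosomes bring cytoplasm to it when the kinase complex TORC1 is inhibited, and growing cells in rich medium form few of them. The vacuole makes no mRNA of its own. RNA in the fraction can lie inside vacuoles, on the cytoplasmic face of their membrane or in other material that floats with them, and counts per gene do not tell these apart. Fewer vacuoles and less RNA per vacuole cannot be told apart either, since the counts give only the makeup of the RNA sequenced.

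The libraries held 15586926 to 20364284 counts on genes, and 3 counts, the floor used for a gene at 0, corresponded to 0.147 to 0.192 CPM, counts scaled to a common library size. Below, CPM are given after TMM scaling, which sets the bulk of mRNAs equal between libraries, and pairs of CPM values give *rny1*Δ first and *rny1*Δ *atg2*Δ second. *ATG2* had 62.7 and 0.494 CPM in vacuole fractions, against 56.2 and 0.795 CPM in total lysates, so the label *atg2*Δ held in both fractions. *RNY1* had 18.8 and 17.4 CPM in vacuole fractions, against 16.3 and 23.3 CPM in total lysates. Reads on *RNY1* were thus present in every library, and where along the gene they fell is not recorded in the counts, so the strains are named by their labels. Between the strains, counts within a fraction differed by at least 12.5 times the variance of counting, so no library repeats another. With 1 library per strain and fraction, the 2 strains stand in as replicates, and p-values measure the spread between them or between the rapamycin replicates.

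Most mRNAs took nearly equal shares of vacuole and total RNA. Protein-coding genes entered the test when their counts over the 4 libraries added up to 10 or more, which left 5705, and 4829 (84.6%) of these had a fitted log2 vacuole/total ratio within 0.5 of 0. An mRNA was called where its log2 ratio was 1 or more, or −1 or less, and its adjusted p-value lay below 0.01 (edgeR's quasi-likelihood test with strain as a term, Benjamini-Hochberg adjustment). By this rule 131 mRNAs (2.30% of those tested) were higher and 47 (0.824%) were lower in vacuole RNA. Of the 131, 101 lay below 1.5, and 17 reached 2. The 4-library fit has 1 residual degree of freedom and one spread for all mRNAs. In a fit that adds the 8 rapamycin libraries for their replicate spread, 104 mRNAs (1.82%) were higher and 46 (0.806%) were lower, and by the adjusted p-value alone 540 (9.47%) were higher and 407 (7.13%) were lower. The adjusted p-values given below for single genes, and for differences between strains or treatments, are from the fit with 12 libraries.

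Across the 5705 mRNAs the log2 ratios of the strains had a Pearson correlation of 0.88 and a Spearman correlation of 0.76, as a description over genes that share their libraries. The median size of the difference between strains was 0.11, and some of the lowest nuclear encoded mRNAs differed by more than 1, among them *KTR2* with −2.22 in *rny1*Δ and −3.63 in *rny1*Δ *atg2*Δ. Of the 131 higher mRNAs, 97 reached a log2 ratio of 1 in each strain. In all, 99 mRNAs (1.74%) did so and 44 (0.771%) were at −1 or less in each strain. The plot of one strain against the other shows an upper arm that leaves the bulk along the diagonal, a smaller lower arm and a separate cluster of mitochondrially encoded mRNAs.

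**Figure D1:**
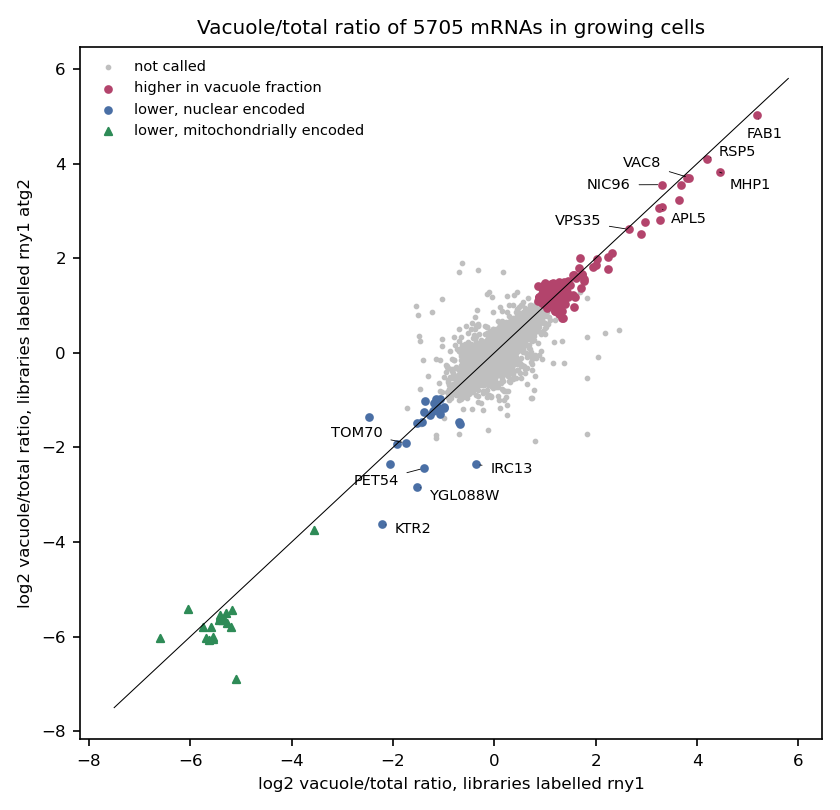
Log2 vacuole/total ratio of each of 5705 mRNAs in growing cells, with libraries labelled *rny1*Δ on the x axis and *rny1*Δ *atg2*Δ on the y axis. Each point is an mRNA, colours mark the 131 called higher, the 28 nuclear encoded called lower and the 19 mitochondrially encoded, and the line is equality. *FAB1* is farthest at the upper end, with 5.18 and 5.03, and *IRC13* and *KTR2* lie off the line.

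The highest ratio belonged to *FAB1* (YFR019W), which encodes the kinase that makes phosphatidylinositol 3,5-bisphosphate on the vacuole membrane. The gene lies on chromosome VI, 184502 to 191338, in build R64 (sacCer3). Its mRNA had 5228 and 4355 CPM in vacuole fractions, against 144 and 134 CPM in total lysates. Both vacuole libraries stood far above both total libraries, and the log2 ratio was 5.10 ± 0.11 (SD, n = 2 strains; adjusted p = 1.3e-13, edgeR), a 34.4-fold difference. Per kilobase of coding sequence, *FAB1* ranked 222nd and 249th of 5705 mRNAs in vacuole fractions, against 3691st and 3822nd in total lysates.

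*RSP5* (YER125W) and *VAC8* (YEL013W) also encode proteins that act at endosomes or vacuoles. *RSP5*, the ubiquitin ligase that marks membrane proteins for sorting to the vacuole (chromosome V, 410189 to 412618), had 7444 and 6859.5 CPM in vacuole fractions, against 408 and 398 CPM in total lysates. Its log2 ratio was 4.15 ± 0.057 (adjusted p = 3.5e-13, edgeR). *VAC8*, an armadillo-repeat protein anchored in the vacuole membrane that serves vacuole inheritance and fusion (chromosome V, 128825 to 130561), had 3244 and 3159.6 CPM in vacuole fractions, against 225 and 243 CPM in total lysates. Its log2 ratio was 3.78 ± 0.10 (adjusted p = 3.5e-13, edgeR). In all these libraries the groups were far apart. YEL014C, an open reading frame without a gene name 217 bases from *VAC8*, had 163 and 137 CPM in vacuole fractions, against 12.9 and 14.4 CPM in total lysates and a log2 ratio of 3.44 ± 0.28, and whether its reads belong to *VAC8* transcripts was not tested.

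Further high mRNAs encode regulators at the vacuole surface. *RAV1* (YJR033C), a subunit of the RAVE complex that assembles the vacuolar proton pump, had 1537 and 1332 CPM in vacuole fractions, against 110.0 and 103 CPM in total lysates. *SCH9* (YHR205W), a kinase that TORC1 phosphorylates at the vacuole, had 1221 and 1145 CPM in vacuole fractions, against 94.8 and 98.5 CPM in total lysates. *SIP1* (YDR422C), a β subunit of the Snf1 kinase that places it at the vacuole, had 564 and 451 CPM in vacuole fractions, against 72.0 and 65.9 CPM in total lysates. Their log2 ratios were 3.75 ± 0.081, 3.61 ± 0.10 and 2.87 ± 0.14 (SD, n = 2 strains). In each case the lowest vacuole library exceeded the highest total library, as for 33.2% of all mRNAs tested.

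A large subunit of each of 3 adaptor complexes, which select cargo for vesicles, was also high. *APL4* (YPR029C), the γ subunit of AP-1, had 1311 and 1098 CPM in vacuole fractions, against 132 and 130.4 CPM in total lysates. *APL5* (YPL195W), the δ subunit of AP-3, which carries proteins from the Golgi to the vacuole, had 1494 and 1342 CPM in vacuole fractions, against 158 and 161 CPM in total lysates. Their log2 ratios were 3.19 ± 0.17 and 3.15 ± 0.13, and *APL3* (YBL037W), the α subunit of AP-2, reached 2.70 ± 0.27, with 407 and 331 CPM in vacuole fractions, against 54.7 and 57.9 CPM in total lysates. The strains agreed for each of the 3 within 0.27 (SD).

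Not all of the highest mRNAs encode vacuolar or endosomal proteins. *MHP1* (YJL042W), a microtubule-associated protein, had 3836 and 2362 CPM in vacuole fractions, against 176 and 167 CPM in total lysates. It had the largest SD among the 12 highest, with a log2 ratio of 4.13 ± 0.44, and its call was lost when the spread was estimated robustly against outlying genes. *NIC96* (YFR002W), the linker nucleoporin of the nuclear pore, had 1395 and 1753 CPM in vacuole fractions, against 141 and 149 CPM in total lysates. *GIS3* (YLR094C), a protein of unknown function, had 336 and 233 CPM in vacuole fractions, against 34.9 and 33.1 CPM in total lysates. The log2 ratios of *NIC96* and *GIS3* were 3.43 ± 0.18 and 3.04 ± 0.32.

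Together, the 12 mRNAs took 2.45% and 2.17% of the counts in vacuole fractions, against 0.166% and 0.167% in total lysates. Their log2 ratios ran from 2.87 to 5.10, with adjusted p-values of 1.3e-10 or less. The *rny1*Δ minus *rny1*Δ *atg2*Δ difference in their log2 ratios ran from −0.23 to 0.64, and it passed the test for none of the 12 (lowest adjusted p = 1.00, edgeR). In all 12, both vacuole libraries exceeded both total libraries, as they did for 33.2% of all mRNAs tested.

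**Figure D2:**
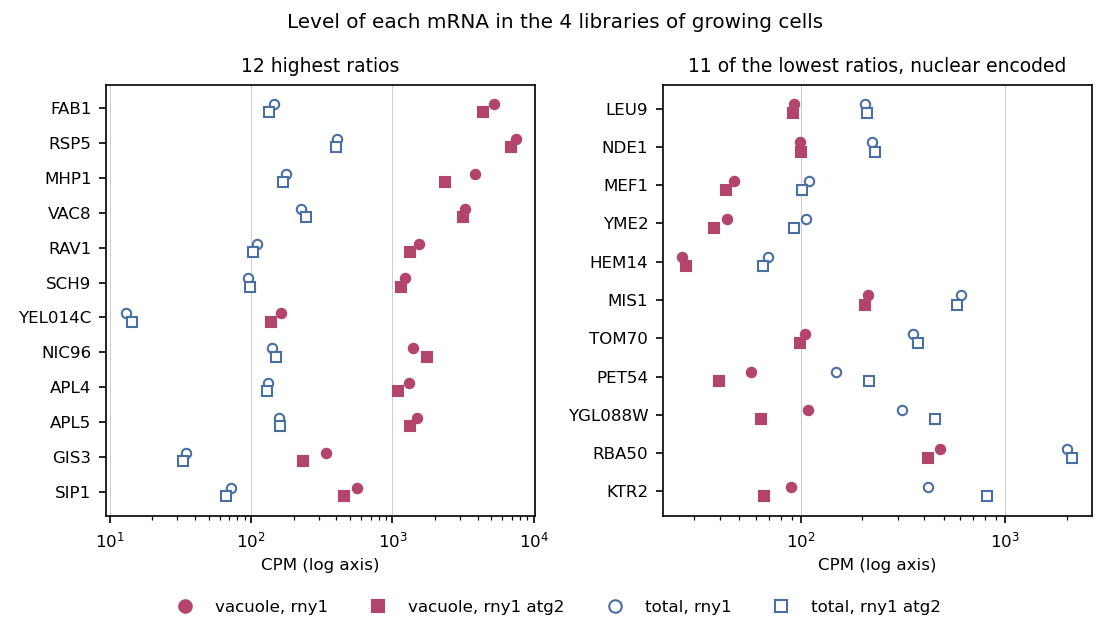
CPM, on a log axis, of the 12 mRNAs with the highest and 11 of the nuclear encoded mRNAs with the lowest vacuole/total ratio, in each of the 4 libraries. Filled symbols are vacuole fractions and open symbols total lysates, circles *rny1*Δ and squares *rny1*Δ *atg2*Δ. *FAB1* lies at 5228 and 4355 CPM in vacuole fractions and at 144 and 134 CPM in total lysates.

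In several complexes a single subunit mRNA was called and its partners were not. Others had more than 1, as in the Nic96 complex, where *NIC96* and *NSP1* were called, and in peroxisome elongation, where *PEX11* was and *PEX25* was in the 4-library fit alone. These complexes were picked after the values had been seen, so the contrast is a description. In AP-1 the log2 ratio of *APL4* was 3.19 ± 0.17, and the β, μ and σ subunits *APL2*, *APM1* and *APS1* had 0.33 ± 0.05, 0.19 ± 0.046 and −0.12 ± 0.067. In AP-2 the partners of *APL3* had 0.18 ± 0.012 (*APL1*, β), −0.066 ± 0.072 (*APM4*, μ) and −0.21 ± 0.11 (*APS2*, σ). In AP-3 the partners of *APL5* had 0.83 ± 0.026 (*APL6*, β), −0.026 ± 0.081 (*APM3*, μ) and −0.28 ± 0.086 (*APS3*, σ). Thus the γ, α and δ subunits were called in their complexes and the β, μ and σ subunits were not.

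Other machines of membrane traffic also held a single call. *VPS35*, the cargo-binding subunit of retromer, which returns proteins from endosomes to the Golgi, had 977 and 902 CPM in vacuole fractions, against 154 and 148 CPM in total lysates and a log2 ratio of 2.64 ± 0.041 (adjusted p = 1.2e-12, edgeR), and the other 4 retromer subunits lay between −0.11 and 0.15. *VAM6*, which encodes the Vps39 subunit of the HOPS tether of vacuole fusion, had a log2 ratio of 2.13 ± 0.15, and the other 5 HOPS subunits lay between 0.084 and 0.999, where the highest, *VPS16*, was just short of a call. The scaffold *VAC14*, the activator *VAC7* and the phosphatase *FIG4* of the Fab1 complex had 0.40 ± 0.01, 0.63 ± 0.12 and −0.033 ± 0.092. *RAV2* and *SKP1*, the partners of *RAV1*, had 0.043 ± 0.01 and −0.53 ± 0.13. *VPS13*, a lipid transfer protein of membrane contact sites, had 1.85 ± 0.22.

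Among kinase complexes, *SIP1* was called and the other subunits of Snf1 kinase were not, although the catalytic subunit *SNF1* had 0.98 ± 0.081. The paralogs *SIP2* and *GAL83*, which place the kinase elsewhere in the cell, had 0.15 ± 0.26 and 0.11 ± 0.048. Of TORC1, the kinase gene *TOR1* had 1.01 ± 0.092 and was called in the 4-library fit alone, the alternative kinase *TOR2* had 0.74 ± 0.093, and *KOG1*, *LST8* and *TCO89* had 0.20 ± 0.078, 0.042 ± 0.081 and 0.30 ± 0.064. Around TORC1, *SCH9*, *IVY1* (2.22 ± 0.15) and *PIB2* (1.47 ± 0.049), where *IVY1* and *PIB2* encode regulators at the vacuole, were called, and the Rag GTPases *GTR1* and *GTR2* had 0.096 ± 0.16 and 0.03 ± 0.049. The nitrogen-responsive transcription factors *GLN3* and *GAT1*, which TORC1 holds in the cytoplasm, had 1.40 ± 0.16 and 1.26 ± 0.0053.

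**Figure D3:**
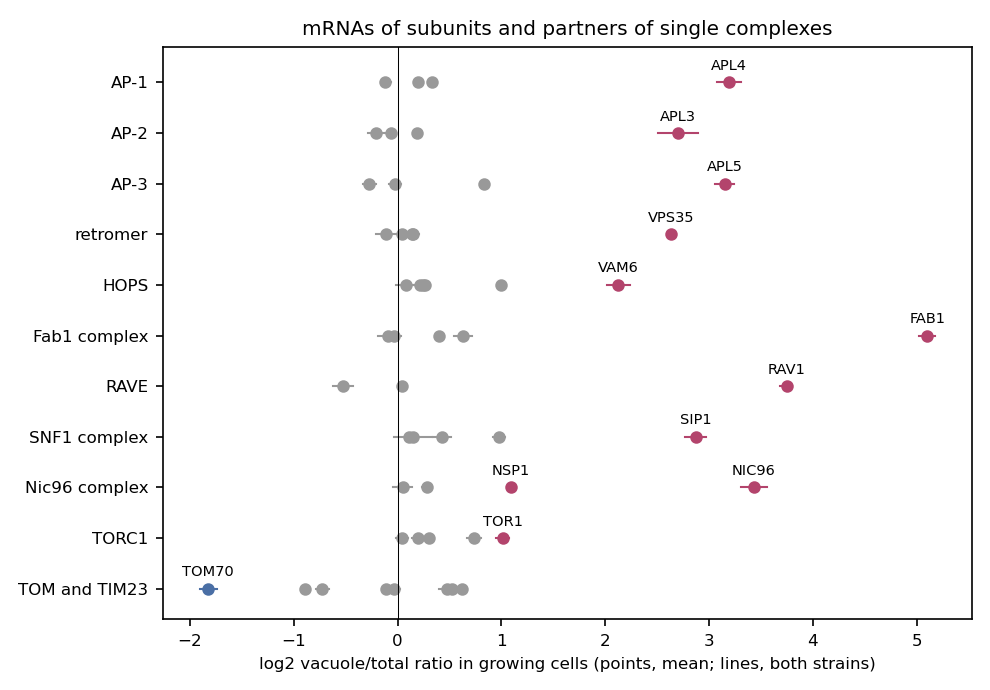
Log2 vacuole/total ratio in growing cells of the subunit mRNAs of 11 complexes or assemblies, one row each. Points are means, lines join the 2 strains, and colour and names mark the mRNAs called higher or lower. In each of AP-1, AP-2 and AP-3 a single subunit lies at 2.70 or more and the others at 0.83 or less.

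The same ratios were then read over gene lists, beside the median of all mRNAs, which was −0.0063. Of 66 mRNAs for vacuole and endosome trafficking, 8 (12.1%, against 2.30% of all mRNAs) were higher (7 in the 12-library fit) and none was lower, and their median was 0.11. The 8 are *FAB1*, *VAC8*, *RAV1*, *APL5*, *VPS35*, *VAM6*, *VPS13* and *STP22*, an ESCRT-I subunit, at 1.03 ± 0.082, so the list's count rests on a few mRNAs and most of its members lay near 0. Its lowest members were *MVB12* (−0.43 ± 0.047) and *SRN2* (−0.41 ± 0.066), also of ESCRT-I. Vacuolar hydrolases, such as the proteases inside the vacuole, were not called (0 of 17 higher), with the carboxypeptidase *CPS1* at 0.39 ± 0.0023 and the mannosidase *AMS1* at −0.50 ± 0.077, and the list also holds the ion pump *YPK9* (0.51 ± 0.051). With 2.30% of all mRNAs higher, a list this small cannot show that calls are lacking. Of vacuolar membrane transporters and proton pump subunits 1 of 44 (2.27%, near the share of all mRNAs) was higher, the amino acid exporter *AVT6* (1.09 ± 0.071).

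mRNAs of the nuclear pore had the highest median of the lists, 0.35, and 5 of 32 (15.6%) were higher. They are *NIC96*, *NUP116* (1.70 ± 0.045), *NUP2* (1.35 ± 0.015), *MLP2* (1.22 ± 0.0038) and *NSP1* (1.09 ± 0.022), and *ASM4* (−0.29 ± 0.15) and *POM152* (−0.23 ± 0.031) were lowest. Of protein kinases 7 of 121 (5.79%) were higher (5 in the 12-library fit), with a median of 0.15. *SCH9* was followed by the p21-activated kinases *CLA4* (1.70 ± 0.057) and *SKM1* (1.54 ± 0.25) and by *MKK1* (1.29 ± 0.15) of the cell wall integrity pathway. Of DNA-binding transcription factors 8 of 129 (6.20%) were higher (5 in the 12-library fit), led by *ASG1* (1.64 ± 0.19) and *GLN3*. The median coding length was 2354 nt for nuclear pore genes and 1974 nt for kinases, against 1227 nt for all genes, and ratios were higher for long genes. With a smooth trend on length removed, the medians were 0.16 for the nuclear pore, 0.022 for kinases, 0.0051 for transcription factors and 0.042 for trafficking.

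Lists of mRNAs translated at the endoplasmic reticulum held calls near the share of all mRNAs (2.30% higher), apart from secreted and cell wall proteins. Of these 6 of 50 (12%, against 2.30% of all mRNAs) were higher (4 in the 12-library fit), among them *FLO11* (1.27 ± 0.19), *TOS6* (1.24 ± 0.015), *WSC2* (1.22 ± 0.046) and *CCW12* (1.11 ± 0.03), but the list's median was −0.07, and *PIR1* was lowest at −0.75 ± 0.04. Of mRNAs for translocation, folding and glycosylation in the endoplasmic reticulum 1 of 52 (1.92%) was higher, the translocon pore *SEC61* (1.36 ± 0.0045). *STT3*, the catalytic subunit of oligosaccharyltransferase, had 0.94 ± 0.03. Of plasma membrane transporters 1 of 52 (1.92%) was higher, the potassium transporter *TRK2* (2.00 ± 0.33). In a separate list, of autophagy mRNAs, 1 of 33 (3.03%) was higher, *ATG11* (1.66 ± 0.14), the scaffold of selective autophagy. *ATG32*, the mitophagy receptor, had 0.80 ± 0.0035.

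Lists for the cytosol, and several lists not tied to it, such as histones and ergosterol synthesis, stayed near the median of all mRNAs. The large and small subunits of the cytosolic ribosome had medians of 0.037 and 0.08, and the sole call among 81 large-subunit mRNAs was the stalk protein *RPP0* (1.04 ± 0.025), which fell short of the threshold in the 12-library fit. Among 56 small-subunit mRNAs none was called. Of glycolysis mRNAs 1 of 21 was higher, pyruvate decarboxylase *PDC1* (1.28 ± 0.17). Ribosome assembly (80 mRNAs), the proteasome (34), translation factors (39), cytosolic aminoacyl-tRNA synthetases (21), ergosterol synthesis (23), energy reserve metabolism (29) and histones (10) held no called mRNA in the 4-library fit, with medians between −0.16 and 0.034. With 2.30% of all mRNAs higher and 0.824% lower, counts in lists of these sizes cannot show that calls are lacking. Of bud-localised mRNAs 2 of 21 were higher, *LCB1* (1.23 ± 0.089) of sphingolipid synthesis and *WSC2*.

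**Figure D4:**
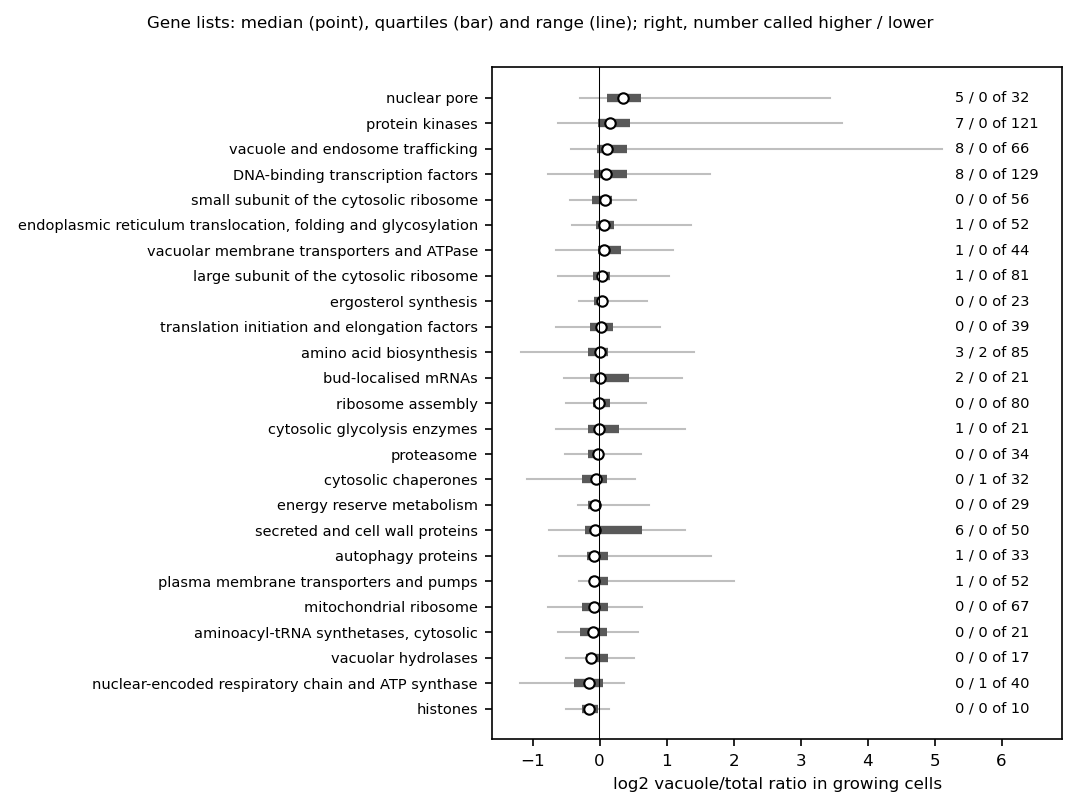
Log2 vacuole/total ratio in growing cells over 25 gene lists, ordered by their median, with quartiles as bars, the range as lines and, at the right, the number of mRNAs called higher and lower of those tested. The vertical line is the median of all mRNAs. The nuclear pore list has the highest median, 0.35, and the trafficking list reaches 5.10.

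mRNAs made inside mitochondria were nearly absent from the vacuole fraction of growing cells. The mitochondrial genome encodes subunits of the respiratory chain and ATP synthase and a ribosomal protein, and its transcripts do not leave the organelle. All 19 such mRNAs were lower (0.824% of all mRNAs were), with log2 ratios between −6.86 (Q0255) and −5.41 (*COX1*) for the 18 with counts in vacuole fractions, and a median of −5.76. The medians were −5.42 in *rny1*Δ and −5.71 in *rny1*Δ *atg2*Δ. They took 0.0166% of counts in the *rny1*Δ vacuole fraction (95% Clopper-Pearson interval 0.0160% to 0.0172%), against 0.781% in its total lysate (0.777% to 0.786%). In *rny1*Δ *atg2*Δ they took 0.0159% in the vacuole fraction (0.0153% to 0.0164%), against 0.884% in the total lysate (0.880% to 0.888%). The intervals cover counting error only.

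For cytochrome oxidase, *COX1* (Q0045) had 13.3 and 12.9 CPM in vacuole fractions, against 523 and 589.8 CPM in total lysates. *COX2* had 12.5 and 12.1 CPM in vacuole fractions, against 608 and 677 CPM in total lysates, and *COX3* had 10.8 and 7.91 CPM in vacuole fractions, against 419 and 419 CPM in total lysates. Their log2 ratios were −5.41 ± 0.16, −5.71 ± 0.15 and −5.50 ± 0.31 (adjusted p-values of 2.1e-12 or less), and no vacuole library came near a total library. Cytochrome *b* (*COB*) had −5.52 ± 0.11, and the ATP synthase subunits *OLI1* and *ATP6* had −5.55 ± 0.16 and −5.91 ± 0.32. *ATP8* had 0 counts in both vacuole libraries, against 19 and 27 in total lysates, and was at least 7.11-fold lower in *rny1*Δ and 8.68-fold lower in *rny1*Δ *atg2*Δ, taking 3 counts per library as the floor. *VAR1*, the mitochondrial ribosomal protein, had 6 and 9 counts in vacuole fractions, against 380 and 633 in total lysates. With *ATP8* at its bound, the median of the 19 was −5.71. Reading frames inside the introns of *COX1* and *COB* overlap these genes in the annotation, and which of the overlapping genes a read came from could not be told.

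Among nuclear encoded mRNAs, 28 were lower, and 17 of them encode proteins of mitochondria. This assignment was made after the values had been seen. No fixed list of mitochondrial proteins was used, so their share among all mRNAs was not computed, and 17 of 28 is a description. Among those with at least 100 counts in each total library, the lowest without a snoRNA or snRNA gene within 300 bases was *TOM70* (YNL121C) (chromosome XIV, 398684 to 400537), the outer membrane receptor that takes up precursors of mitochondrial proteins. It had 105 and 99.4 CPM in vacuole fractions, against 352 and 373 CPM in total lysates, a log2 ratio of −1.83 ± 0.12 (adjusted p = 1.3e-10, edgeR). Its paralog *TOM71* had −0.89 ± 0.011 and the pore *TOM40* −0.73 ± 0.09, short of the threshold. The receptors *TOM20* and *TOM22* had −0.11 ± 0.0011 and −0.032 ± 0.075, and *TIM23*, *TIM44* and *SSC1* of the inner membrane import machinery had 0.52 ± 0.11, 0.62 ± 0.052 and 0.48 ± 0.12. Import proteins thus lay on both sides of 0.

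Proteins of the matrix and inner membrane were among the others. *MIS1* (YBR084W), the one-carbon folate enzyme of mitochondria, had 212 and 207 CPM in vacuole fractions, against 609 and 582 CPM in total lysates. *HEM14* (YER014W), protoporphyrinogen oxidase of heme synthesis, had 26.3 and 27.5 CPM in vacuole fractions, against 69.3 and 65.5 CPM in total lysates. In each, both vacuole libraries lay below both total libraries (as for 33.1% of all mRNAs), with log2 ratios of −1.51 ± 0.018 and −1.32 ± 0.10. *YME2* of the inner membrane, the elongation factor *MEF1*, the external NADH dehydrogenase *NDE1* and *LEU9* of leucine synthesis had −1.29 ± 0.023, −1.23 ± 0.015, −1.18 ± 0.02 and −1.17 ± 0.029. Aconitase *ACO1* (−1.13 ± 0.03) and the second leucine synthesis enzyme *LEU4* (−1.07 ± 0.10) were lower too, and *MSY1*, *MCY1*, *TCD2*, *DLD2*, *COX15*, *ODC2* and *PET54* are also among the 17.

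The lower ratio was not shared by all mRNAs of mitochondrial proteins. Of 40 nuclear encoded mRNAs of the respiratory chain and ATP synthase 1 (2.5%) was called lower, *NDE1*, against 0.492% of all nuclear encoded mRNAs. With a share this low, counts in lists of this size cannot show that lower mRNAs are lacking. The median was −0.15, with 27 mRNAs below 0 and 13 above. *NDI1*, the internal NADH dehydrogenase, had −0.63 ± 0.049, and the ATP synthase subunits *ATP1* and *ATP2* had 0.37 ± 0.017 and 0.21 ± 0.022. Of 67 mitochondrial ribosomal protein mRNAs none was called, and they ran from −0.77 ± 0.17 (*MRPL3*) to 0.63 ± 0.10 (*MRPL50*) among those with at least 100 counts in both libraries of a fraction. In amino acid synthesis, 3 of 85 were higher (*ILV6* at 1.41 ± 0.11, *THR1* at 1.20 ± 0.088 and *GDH3* at 1.04 ± 0.085, which was not called in the 12-library fit), and the 2 that were lower were *LEU4* and *LEU9*. The small heat shock protein *HSP12* was lower, at −1.08 ± 0.11.

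A second kind of lower mRNA lay beside genes of small noncoding RNAs. Of 56 nuclear encoded genes with a snoRNA or snRNA gene within 300 bases, 6 (10.7%) were lower, against 22 of 5630 (0.391%) of the others, a contrast noticed in the data. They include the 4 lowest nuclear encoded mRNAs with at least 100 counts in each total library. *KTR2* (YKR061W), a mannosyltransferase, lies 62 bases from *SNR42* and had 90.0 and 65.7 CPM in vacuole fractions, against 419.5 and 812 CPM in total lysates. *RBA50* (YDR527W), an assembly factor of RNA polymerase II, lies 64 bases from *SNR84* and had 482 and 419.9 CPM in vacuole fractions, against 2011 and 2137 CPM in total lysates. YGL088W, which overlaps *SNR10*, had 108 and 63.7 CPM in vacuole fractions, against 313 and 456 CPM in total lysates. Their log2 ratios were −2.92 ± 0.99, −2.20 ± 0.20 and −2.17 ± 0.92, and *PET54*, 251 bases from *SNR7-L*, had −1.91 ± 0.75. The library kit named in the study's methods does not mark strand, so reads of the small RNA or its precursor and reads of the mRNA could not be told apart at these loci. *ODC2*, a mitochondrial carrier 73 bases from *SNR35*, had −0.68 in *rny1*Δ and −1.51 in *rny1*Δ *atg2*Δ, and *IRC13* is described below. When the spread was estimated robustly, 5 of the 6 lost their call, and *RBA50* kept it.

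Few mRNAs passed a test of the difference between strains. The *rny1*Δ minus *rny1*Δ *atg2*Δ difference in the log2 ratio, tested in the 12-library fit, passed an adjusted p-value of 0.01 for 0 of 5705 mRNAs (edgeR), where 71 (1.24%) had an unadjusted p-value under 0.05, and DESeq2's Wald test called 3. At an adjusted p-value under 0.05 edgeR called 2, *IRC13* and *POP6*. *IRC13* (YOR235W) overlaps *SNR17A* and had log2 ratios of −0.37 in *rny1*Δ and −2.36 in *rny1*Δ *atg2*Δ, a difference of 2.01 (adjusted p = 0.034, edgeR). *POP6* (YGR030C), a subunit of RNase P and RNase MRP, lies 115 bases from *SNR46* and had 0.25 and −1.10, a difference of 1.38 (adjusted p = 0.034, edgeR). DESeq2 called *IRC13*, *KTR2* and YGL088W. All 4 genes have a small noncoding RNA gene within 300 bases, and each value rests on 1 library per strain and fraction. The share of unadjusted p-values under 0.05 was smaller than such a test gives when no mRNA differs. The test was thus conservative, and few calls do not show that the strains agree, for the 12 highest mRNAs included.

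Of the 8 mRNAs that the study picked for closer work on vacuolar delivery, 2 stood out in growing cells. For rapamycin-treated cells the study classed *HOM2*, *LYS1*, *HIS5* and *ARO2* as vacuole-enriched, and *APL5*, *ASG1*, *PIG2* and *NTH2* as vacuole-depleted. Both that stood out, *APL5* and *ASG1*, are of its depleted class. In *rny1*Δ after rapamycin (replicates 1 and 2), the log2 vacuole/total ratio was 0.28 and −0.025 for *APL5*. For *ASG1* it was −0.76 and −0.68. The study describes its measure as relative rapamycin-induced delivery. If growing vacuole libraries entered that measure, a high growing ratio would by itself favour the depleted class, and this was not tested. *APL5* is described above, and *ASG1*, a transcription factor of stress responses, had 293 and 253 CPM in vacuole fractions, against 85.4 and 88.7 CPM in total lysates, with a log2 ratio of 1.64 ± 0.19 (adjusted p = 4.5e-10, edgeR). The amino acid synthesis mRNAs *HOM2*, *LYS1*, *HIS5* and *ARO2* had log2 ratios of −0.075 ± 0.22, −0.14 ± 0.0085, −0.035 ± 0.0018 and 0.11 ± 0.075. *PIG2*, a regulator of glycogen synthesis, and the trehalase *NTH2* had −0.28 ± 0.34 and −0.092 ± 0.08. None of these 6 was called, and their adjusted p-values were 0.075 to 0.82.

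Ratios were higher for longer coding sequences in both strains. Median log2 ratios were −0.13 and −0.29 for the 233 mRNAs of up to 300 nt, −0.042 and −0.035 for those above 1000 and up to 1500 nt, and 0.25 and 0.30 for the 143 above 4500 nt (*rny1*Δ and *rny1*Δ *atg2*Δ). Across genes, the Spearman correlation with coding length was 0.21 in *rny1*Δ and 0.27 in *rny1*Δ *atg2*Δ. The share of mRNAs called higher was 0.680% above 600 and up to 1000 nt, 4.38% above 2000 and up to 3000 nt and 9.09% above 4500 nt. With a smooth trend on length removed, 110 mRNAs were higher, 105 of them among the 131, and *FAB1*, with 6837 nt of coding sequence, remained among them.

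Ribosome footprints per mRNA in growing WT cells, an independent readout, ran weakly against the ratio. Over the 3258 mRNAs with at least 64 counts in each of the 4 growing WT libraries, the Spearman correlation was −0.12 in *rny1*Δ and −0.19 in *rny1*Δ *atg2*Δ, as a description across genes. With mRNAs split into quartiles by footprints per mRNA, low to high, 38, 22, 16 and 13 mRNAs were called higher, out of 814 or 815 each. The 89 called higher that had a value lay at a median log2 of 0.0059 footprints per mRNA, against 0.36 for all 3258. The level of the mRNA in growing WT cells, in counts per kilobase, had Spearman correlations of −0.12 and −0.088 with the ratio.

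The 12 highest mRNAs were less high in vacuole fractions of rapamycin-treated cells. Rapamycin inhibits TORC1 and induces autophagy, which the libraries labelled *rny1*Δ *atg2*Δ should lack. For *FAB1* the log2 ratio was 5.18 in growing cells, against 1.15 and 0.80 after rapamycin (replicates 1 and 2), in *rny1*Δ, a growing minus rapamycin difference of 4.15 (adjusted p = 4.5e-09, edgeR). In *rny1*Δ *atg2*Δ it was 5.03, against 2.05 and 2.06 after rapamycin, a difference of 2.90 (adjusted p = 2.3e-07, edgeR). Over the 12 highest mRNAs, the growing minus rapamycin difference was 2.03 to 4.15 in *rny1*Δ and 1.53 to 3.29 in *rny1*Δ *atg2*Δ, and all 12 passed the test in each strain. These 12, all 131 higher mRNAs and the low mRNAs below were chosen by their growing ratio, which enters this difference. The tests are thus not independent of the choice, and part of any excess over all mRNAs is built in. Of all 131 higher mRNAs, 92 were higher in growing cells by an adjusted p-value under 0.01 and 3 were lower in *rny1*Δ, against 16.4% and 19.4% of all mRNAs tested. In *rny1*Δ *atg2*Δ 54 were higher and 1 was lower, against 2.65% and 4.03%. *THR1* of threonine synthesis was an exception, with 1.26 in growing cells, against 2.32 and 2.63 after rapamycin, in *rny1*Δ (difference −1.25, adjusted p = 3.9e-05, edgeR). The median rapamycin ratio of the 12 was 0.91 and 0.58 in *rny1*Δ and 0.88 and 0.99 in *rny1*Δ *atg2*Δ.

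Of the 19 mitochondrially encoded mRNAs, 9 in *rny1*Δ and 18 in *rny1*Δ *atg2*Δ were less low after rapamycin by the same test. Of all mRNAs tested, 19.4% in *rny1*Δ and 4.03% in *rny1*Δ *atg2*Δ were lower in growing cells by it. The log2 ratio of *COX1* was −5.29 in growing cells, against −3.98 and −4.11 after rapamycin, in *rny1*Δ (adjusted p = 0.0021, edgeR). In *rny1*Δ *atg2*Δ it was −5.51, against −2.05 and −1.69 after rapamycin (adjusted p = 5.1e-07, edgeR). Of the 8 lowest nuclear encoded mRNAs without a small RNA gene close by, 3 passed the test in *rny1*Δ, against 19.4% of all mRNAs. All 8 passed it in *rny1*Δ *atg2*Δ, against 4.03%. There, *TOM70* had −1.91 in growing cells, against 0.014 and −0.18 after rapamycin, and *MIS1* had −1.49, against 0.46 and 0.44. In *rny1*Δ, *MIS1* had −1.52, against −1.36 and −1.08 after rapamycin, and did not pass the test (adjusted p = 0.18, edgeR). Growing cells gave 1 pair of libraries per strain, so these tests take their spread from the rapamycin replicates, and replicate 2 of the *rny1*Δ *atg2*Δ vacuole fraction held 535462 counts.

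**Figure D5:**
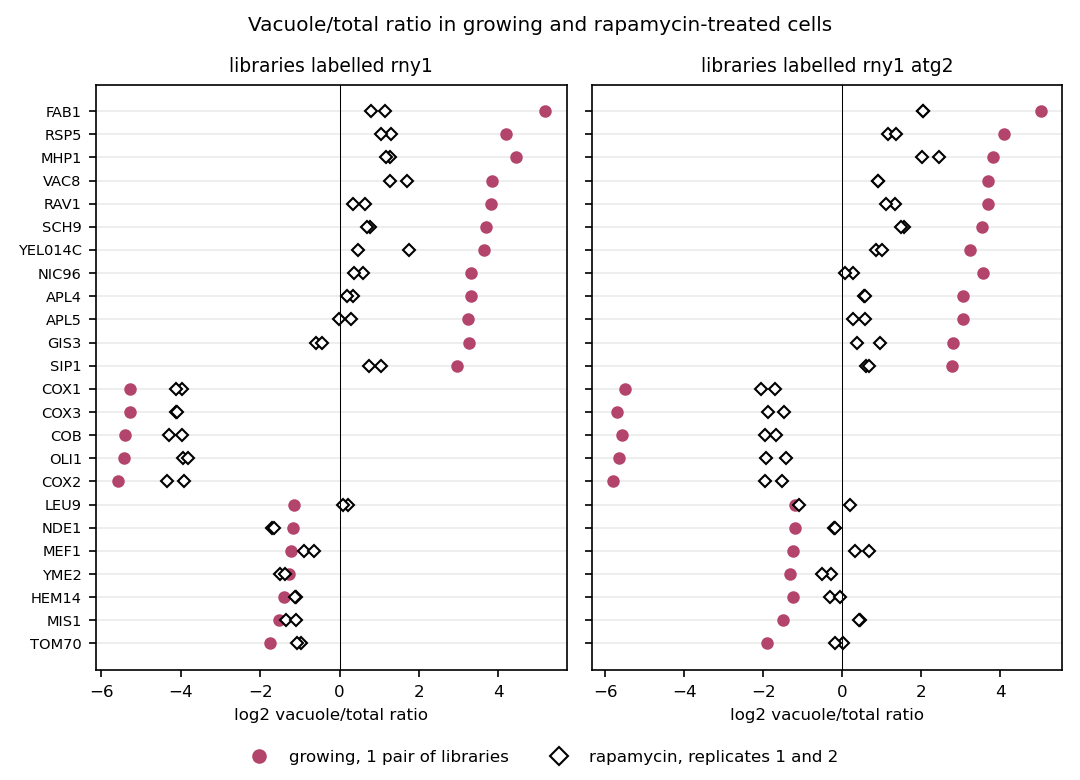
Log2 vacuole/total ratio of the 12 highest mRNAs, 5 mitochondrially encoded mRNAs and 7 of the lowest nuclear encoded mRNAs, in libraries labelled *rny1*Δ (left) and *rny1*Δ *atg2*Δ (right). Filled points are growing cells, 1 pair of libraries each, and open diamonds are replicates 1 and 2 after 3 h of rapamycin. All 12 high mRNAs have growing points to the right of both diamonds in each strain.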

How the data were processed

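RNA-Seq counts per gene were taken as deposited. The authors prepared RNA depleted of rRNA, aligned reads to sacCer3 with TopHat2 2.0.9 and counted them per gene with HTSeq 0.6.1, per the submitters' processing notes and the study's methods. The counts of footprints and mRNA of WT cells were made by the authors with STAR 2.7.0a. The 5 summary lines per file were dropped, among them reads on no gene, which were 45.9% to 46.1% of uniquely aligned reads. Of 6696 genes, 6005 matched protein-coding genes of RefSeq's R64 table. The 688 without a match took 6.62% to 6.88% of counts.

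Counts were fitted with edgeR 4.0.16 (TMM scaling, quasi-likelihood test) in R 4.3.3, with DESeq2 1.42.0 as an alternative. The procedure was tested on simulated data. Log2 ratios are coefficients of the fit, and ratios of single strains, with the SD (±) over them, come from log2 CPM with a prior count of 2, so at low counts the coefficient can lie outside both strains. Named mRNAs were those of the study, the deleted genes, the 12 highest and 12 lowest called, 8 mitochondrial ones and the 2 ends of each list, and others were chosen after values were seen. The libraries, lists and tests were chosen with earlier results of these data known. Replicate numbers were not used to pair the rapamycin libraries in the main fit. A member of the lowest mRNAs is not reported here.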

Additional observations from a re-analysis of the deposited data

Results flagged for a closer look

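Growing minus rapamycin differences in the log2 vacuole/total ratio passed edgeR's test for several mRNAs. They were 4.146 in *rny1*Δ and 2.897 in *rny1*Δ *atg2*Δ for *FAB1*, 2.969 and 2.78 for *RSP5*, and 3.18 and 1.527 for *MHP1*, all higher in growing cells. For *COX1* the differences were −1.29 in *rny1*Δ and −3.702 in *rny1*Δ *atg2*Δ. In *rny1*Δ *atg2*Δ they were −1.773 for *KTR2* and −2.043 for YGL088W, both beside snoRNA genes. Whether the differences themselves differ between the strains was not tested for these mRNAs.

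The *rny1*Δ minus *rny1*Δ *atg2*Δ difference in growing cells was 1.377 for *POP6* and 2.013 for *IRC13*, both beside snoRNA genes.

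Features without an entry in the reference annotation were kept out of the comparisons. Of 535 tested, 15 were called higher in vacuole RNA and 7 lower, against 131 (2.30%) and 47 (0.824%) of 5705 mRNAs. The 7 include Q0182 and Q0297, described below.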

How the results depend on the processing

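The number of mRNAs called higher and lower stayed within 1.5 times that of the 4-library fit under every alternative that was run: other scalings, filters, DESeq2, no strain term, 12 libraries, removal of a length trend, robust estimation and 1 strain left out. With robust estimation, chosen after seeing the data, *MHP1*, *KTR2*, YGL088W, *PET54*, *ODC2*, *IRC13* and *PAU5* were not called. *AVT6*, *HSP12*, *RPP0* and *ATP8* each lost their call under at least 1 alternative. The median of mitochondrially encoded mRNAs was −5.55 when every library needed 10 counts, because fewer mRNAs remained. The Spearman correlation with coding length was 0.21 to 0.27 with 1 strain left out and −0.052 once the length trend had been removed, by construction. mRNAs that differed between strains numbered 3 with DESeq2, 10 with the replicate block and 2 at an adjusted p-value under 0.05, against 0. The rapamycin replicates with the same number deviated together weakly (correlations of 0.22 in *rny1*Δ and 0.046 in *rny1*Δ *atg2*Δ), so they were not treated as pairs. The block also brought the growing minus rapamycin difference of *RBA50* in *rny1*Δ *atg2*Δ, −0.63, past the threshold, and the cause was not tested. List medians lay near 0, and 5 of 25 changed sign in the 12-library fit, with shifts of −0.071 to −0.035. The median of all mRNAs itself moved from −0.0063 to −0.063 in that fit, so the lists largely moved with it. It was −0.067 without *rny1*Δ and −0.053 without *rny1*Δ *atg2*Δ. With 1 strain left out the shifts ran from −0.15 to 0.036, with 5 or 6 sign changes, and the medians ran from −0.30 to −0.16 for the respiratory chain and from 0.044 to 0.095 for trafficking. Predicted membrane segments were not run. Each strain and fraction had 1 library, so the spread within a strain is not known in growing cells.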

Other observations

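Among the features without an entry in the reference annotation, Q0182 and Q0297, whose identifiers have the form of mitochondrial genes, were lower in vacuole fractions as the annotated mitochondrial mRNAs were. Q0297 had 14 and 6 counts in vacuole fractions, against 287 and 580 in total lysates. Q0182 had 0 and 1 counts in vacuole fractions, against 53 and 72 in total lysates. The highest was YHR165W-A, with 292 and 356 counts in vacuole fractions, against 69 and 50 in total lysates.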
